A study of Homo sapiens with 19 samples.

Results

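The insulin-like growth factor IGF1, its receptor IGF1R and the IGF-binding proteins IGFBP1 to IGFBP7 were followed in RNA-seq of H1 human embryonic stem cells (hESCs), an established line. The genes were chosen by symbol, and 9 of the 33382 genes in the expression files carried these symbols. Whole-transcriptome RNA-seq was available for 19 samples. Of these, 12 came from 6 lines with 2 samples each: unedited WT H1 cells, single knockouts of the enzyme genes (EZH1-/- and EZH2-/- H1), a knockout of both (EZH2-/-/EZH1-/- H1), and knockouts of the subunit genes (EED-/- and SUZ12-/- H1). The other 7 came from H1-EED-/-/EED-OE cells, in which endogenous EED was deleted and EED was supplied from a doxycycline (DOX)-inducible lentiviral transgene. That line was sampled once with DOX and once on each of days 8, 12, 16, 20, 24 and 28 after DOX was removed. In every knockout, CRISPR/Cas9 with a homologous donor carrying a puromycin or neomycin cassette had removed a critical domain of the gene rather than the whole gene. All cells were kept in mTeSR1 on matrigel, a feeder-free medium for undifferentiated hESCs, and no differentiation protocol was applied. The 2 samples of a knockout line carried different clone or passage names, so the spread between them may be partly clonal and partly technical.

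PRC2 is the Polycomb complex that methylates histone H3 at lysine 27, with EZH1 or EZH2 as the enzyme and EED and SUZ12 as subunits it cannot work without. The lines without EED, without SUZ12 or without both enzymes can form no complete complex and are named PRC2-null in what follows, whereas WT, EZH1-/- and EZH2-/- H1 cells are the other lines. IGF1 and IGF2 are secreted growth factors that signal through the tyrosine kinase receptor IGF1R to the PI3K-AKT and MAPK pathways. The binding proteins are secreted too, hold most extracellular IGF away from the receptor, and release it when proteases cut them. IGFBP7 differs from the first members of the family in its low affinity for IGF and in its high expression in vascular cells and in cells of the stroma.

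Values are in TPM, the share of all transcripts that a gene provides, which corrects for transcript length and can therefore be compared between genes. They are scaled to one total in each sample and carry no read depth, so precision rests on the replicates alone. Only a domain of each targeted gene was deleted, so the gene's TPM does not check the labels. EED, for example, was at 14.3 and 22.4 TPM in EED-/- H1 cells against 17.3 and 22.0 TPM in WT. In H1-EED-/-/EED-OE cells EED was at 109 TPM with DOX and between 12.6 and 31.6 TPM after withdrawal. The 2 SUZ12-/- samples were the closest pair, with a median absolute log2 ratio of 0.09 over genes of at least 10 TPM, and the 2 EZH2-/-/EZH1-/- samples the loosest, with 0.52.

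The 9 genes lie on 6 chromosomes of GRCh38, as placed by GENCODE release 44, which matched all 9 Ensembl identifiers. Among the binding protein genes there are 2 tail-to-tail pairs. IGFBP1 (chr7:45888360-45893660, plus strand) and IGFBP3 (chr7:45912245-45921874, minus strand) are 18.6 kb apart, and IGFBP2 (chr2:216632828-216664436, plus strand) and IGFBP5 (chr2:216672105-216695549, minus strand) are 7.67 kb apart, with 0 annotated genes between the members of each pair. IGF1 (chr12:102395874-102481744, minus strand) and IGFBP6 (chr12:53097436-53102345, plus strand) share a chromosome at a long distance. IGF1R (chr15:98648539-98964530, plus strand), IGFBP4 (chr17:40443450-40457725, plus strand) and IGFBP7 (chr4:57030773-57110385, minus strand) stand alone. The libraries kept no strand, so reads from exons that overlap a gene on the other strand cannot be told apart. IGFBP7 overlaps POLR2B, which reached 118 TPM, and IGFBP7-AS1, which reached 1.42 TPM.

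PRC2 is best known for binding promoters rich in CpG dinucleotides, so the promoters of 4 members that span the range of CpG content are shown. RefSeq promoter windows on GRCh38.p14, from 250 bases before to 50 bases after a start site, were found for 7 of the 9 genes and not for IGFBP1 and IGFBP7. Each sequence is written 5′ to 3′ on the strand of the gene, with CG in capitals.
IGF1, chr12:102481698-102481997, minus strand: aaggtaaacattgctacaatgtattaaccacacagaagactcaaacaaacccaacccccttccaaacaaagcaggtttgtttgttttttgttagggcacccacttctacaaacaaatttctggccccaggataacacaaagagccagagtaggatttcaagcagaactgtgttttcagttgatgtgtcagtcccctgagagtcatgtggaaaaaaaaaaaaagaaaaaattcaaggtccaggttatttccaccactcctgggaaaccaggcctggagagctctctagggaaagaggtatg
IGF1R, chr15:98648289-98648588, plus strand: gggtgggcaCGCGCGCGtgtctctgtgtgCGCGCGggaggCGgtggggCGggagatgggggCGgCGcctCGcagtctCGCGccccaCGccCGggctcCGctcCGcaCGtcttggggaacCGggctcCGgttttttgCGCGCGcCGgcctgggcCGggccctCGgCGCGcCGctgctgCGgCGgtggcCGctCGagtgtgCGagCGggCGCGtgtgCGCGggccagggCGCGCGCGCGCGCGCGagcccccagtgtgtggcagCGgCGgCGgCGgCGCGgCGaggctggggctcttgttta
IGFBP3, chr7:45921223-45921522, minus strand: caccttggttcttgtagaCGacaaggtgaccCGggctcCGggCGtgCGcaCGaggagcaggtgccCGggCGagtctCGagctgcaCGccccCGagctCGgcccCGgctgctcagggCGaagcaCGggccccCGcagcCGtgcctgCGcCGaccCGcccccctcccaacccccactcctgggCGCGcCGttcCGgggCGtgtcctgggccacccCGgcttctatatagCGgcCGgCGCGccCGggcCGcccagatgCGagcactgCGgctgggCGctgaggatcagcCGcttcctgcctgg
IGFBP5, chr2:216695500-216695799, minus strand: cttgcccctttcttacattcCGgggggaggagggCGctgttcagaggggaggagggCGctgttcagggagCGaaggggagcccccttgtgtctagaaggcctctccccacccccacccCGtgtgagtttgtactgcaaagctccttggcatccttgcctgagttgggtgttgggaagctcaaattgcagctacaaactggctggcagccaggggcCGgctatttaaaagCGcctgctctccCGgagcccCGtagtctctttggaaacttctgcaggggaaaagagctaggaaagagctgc
The motif searched was CG, which reads the same on both strands and does not overlap itself. The IGF1 window held 0 of them and a second IGF1 window held 1, as 96.0% of all promoter windows of this length hold at least 1. IGFBP5 had 9, IGFBP6 12, IGFBP4 30 and IGFBP3 36, and the 3 windows of IGFBP2 held 8, 28 and 6, against a median of 14 over all windows. The IGF1R window held 55, and 0.373% of all windows held as many. The genes whose mRNA moved most between lines, described next, thus include windows with 0 (IGF1), 9 (IGFBP5) and 36 (IGFBP3) CG. A window's letters say nothing of whether PRC2 was bound there, which was not measured in these files.

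IGF1 mRNA was listed at 0 in all 6 samples of the other lines and was present in all 6 PRC2-null samples. The ligand was at 35.2 and 54.5 TPM in EED-/- H1 cells, at 9.90 and 10.02 TPM in SUZ12-/- H1 cells and at 63.8 and 90.5 TPM in EZH2-/-/EZH1-/- H1 cells. The 3 PRC2-null lines did not overlap one another. With every WT sample at 0 no fold is given. The changes against WT fitted by limma are on the log2(TPM + 1) scale and depend on the added 1. They were 5.49 ± 0.29 (SE, n = 2 per line) for EED-/-, 3.45 ± 0.29 for SUZ12-/- and 6.27 ± 0.29 for EZH2-/-/EZH1-/-. IGF1 passed the filter on low values (at least 1 TPM in at least 2 of the 12 samples) through PRC2-null samples alone. It thus had to be higher there, and no p-value is given. The thresholds used throughout were an adjusted p of at most 1%, by Benjamini-Hochberg adjustment, and a change of at least 3-fold. Changes on this scale understate the fold of genes at a few TPM or less.

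IGF1R mRNA, unlike that of its ligand, was present in every line. It was at 16.6 and 15.4 TPM in WT, 14.2 and 15.2 TPM in EZH1-/- and 14.2 and 11.9 TPM in EZH2-/- H1 cells. In the PRC2-null lines it was at 93.3 and 70.4 TPM without EED, 22.7 and 23.1 TPM without SUZ12, and 60.6 and 30.0 TPM without both enzymes. All 6 PRC2-null values lay above the other 6, and EED-/- H1 cells were the highest. Only the rise in EED-/- H1 cells passed both thresholds, at 4.83-fold (log2 change 2.27 ± 0.30, limma adjusted p = 0.000113). In EZH2-/-/EZH1-/- H1 cells the change was 2.57-fold (1.36 ± 0.30, limma adjusted p = 0.0039), and without the lower of that pair, replicate 2, it passed with a log2 change of 1.86 (limma adjusted p = 0.00017). In SUZ12-/- H1 cells it was 1.41-fold (0.49 ± 0.30, limma adjusted p = 0.203), with a 95% interval of the log2 change from -0.17 to 1.15.

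Among the binding proteins, IGFBP3, IGFBP5 and IGFBP7 were nearly silent in the other lines and abundant in every PRC2-null sample. IGFBP3, the main carrier of IGF in serum, was at 3.62 and 7.12 TPM in WT, 6 and 8.33 TPM in EZH1-/- and 3.09 and 2.38 TPM in EZH2-/- H1 cells. It was at 374 and 394 TPM without EED, 581 and 619 TPM without both enzymes, and 2439 and 2515 TPM without SUZ12. The 3 PRC2-null lines were apart from one another and from all other lines. The log2 changes against WT were 5.97 ± 0.26, 6.62 ± 0.26 and 8.66 ± 0.26, in that order (limma adjusted p = 1.03e-07, 8.50e-08 and 8.47e-09).

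IGFBP5, which binds extracellular matrix as well as IGF, had between 0.19 and 1.74 TPM in the 6 samples of the other lines. It was at 796 and 721 TPM in EED-/-, 303 and 308 TPM in SUZ12-/- and 1184 and 445 TPM in EZH2-/-/EZH1-/- H1 cells. The EZH2-/-/EZH1-/- pair enclosed both EED-/- values, so these lines did not differ beyond their spread. The log2 changes against WT were 8.72 ± 0.37 for EED-/-, 7.41 ± 0.37 for SUZ12-/- and 8.66 ± 0.37 for EZH2-/-/EZH1-/- H1 cells (limma adjusted p = 1.03e-07, 3.40e-07 and 1.33e-07).

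IGFBP7 had between 0.17 and 1.45 TPM in the other lines. It was at 1014 and 772 TPM in EED-/-, 413 and 454 TPM in SUZ12-/- and 674 and 486 TPM in EZH2-/-/EZH1-/- H1 cells, which makes EED-/- H1 cells the highest and SUZ12-/- H1 cells the lowest of the 3 without overlap. The log2 changes were 8.97 ± 0.33, 7.94 ± 0.33 and 8.34 ± 0.33. IGFBP7 passed the filter on low values through PRC2-null samples alone. It thus had to be higher there, and no p-value is given.

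IGFBP6, which prefers IGF2 to IGF1, started from a low but clear level. It was at 12.0 and 12.4 TPM in WT, 16.5 and 19.5 TPM in EZH1-/- and 9.62 and 22.2 TPM in EZH2-/- H1 cells. It reached 134 and 215 TPM without EED and 141 and 126 TPM without both enzymes, 2 lines that overlapped, but only 34.6 and 37.1 TPM without SUZ12. The rises of 13.0-fold in EED-/- (log2 change 3.70 ± 0.33, limma adjusted p = 8.42e-06) and 10.2-fold in EZH2-/-/EZH1-/- H1 cells (3.35 ± 0.33, limma adjusted p = 2.43e-05) passed both thresholds. In SUZ12-/- H1 cells the 2.79-fold difference met the adjusted p (0.00403 by limma) and missed the 3-fold threshold.

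IGFBP2 and IGFBP4 were the most abundant binding proteins in the other lines, without being particular to them. IGFBP2, the most abundant of the family in WT, was at 351 and 272 TPM in WT, 512 and 625 TPM in EZH1-/- and 431 and 424 TPM in EZH2-/- H1 cells. It was at 786 and 773 TPM in EED-/-, 692 and 839 TPM in EZH2-/-/EZH1-/- and 356 and 375 TPM in SUZ12-/- H1 cells, so the PRC2-null and other lines overlapped. The changes against WT met the adjusted p in EED-/- (2.52-fold, limma adjusted p = 0.000125) and EZH2-/-/EZH1-/- H1 cells (2.46-fold, limma adjusted p = 0.000195) without reaching 3-fold, and in SUZ12-/- H1 cells the difference was 1.18-fold (limma adjusted p = 0.294).

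IGFBP4, an inhibitor of IGF action that the protease PAPPA cleaves, was at 128 and 122 TPM in WT, 199 and 196 TPM in EZH1-/- and 116 and 107 TPM in EZH2-/- H1 cells. It was at 277 and 299.5 TPM in EED-/-, 180.5 and 184 TPM in SUZ12-/- and 206 and 124 TPM in EZH2-/-/EZH1-/- H1 cells. The EZH1-/- samples lay above both SUZ12-/- samples, so for this gene as well the groups overlapped. Its largest difference from WT was 2.30-fold in EED-/- H1 cells (limma adjusted p = 0.000801).

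IGFBP1, a liver and decidua protein, was close to absent. It was at 0.16 and 0 TPM in WT and at 0 in the 4 samples of EZH1-/- and EZH2-/- H1 cells. The values were 0.62 and 0.30 TPM in EED-/-, 1.46 and 1.04 TPM in SUZ12-/- and 0.40 and 0.23 TPM in EZH2-/-/EZH1-/- H1 cells. It passed the filter on low values through the SUZ12-/- samples alone, so it had to be higher there and no p-value is given. Its log2 change in SUZ12-/- H1 cells was 1.06 ± 0.23, under 3-fold. On a scale with 0.1 in place of 1 added to each TPM, that change was 3.05.

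**Figure D1:**
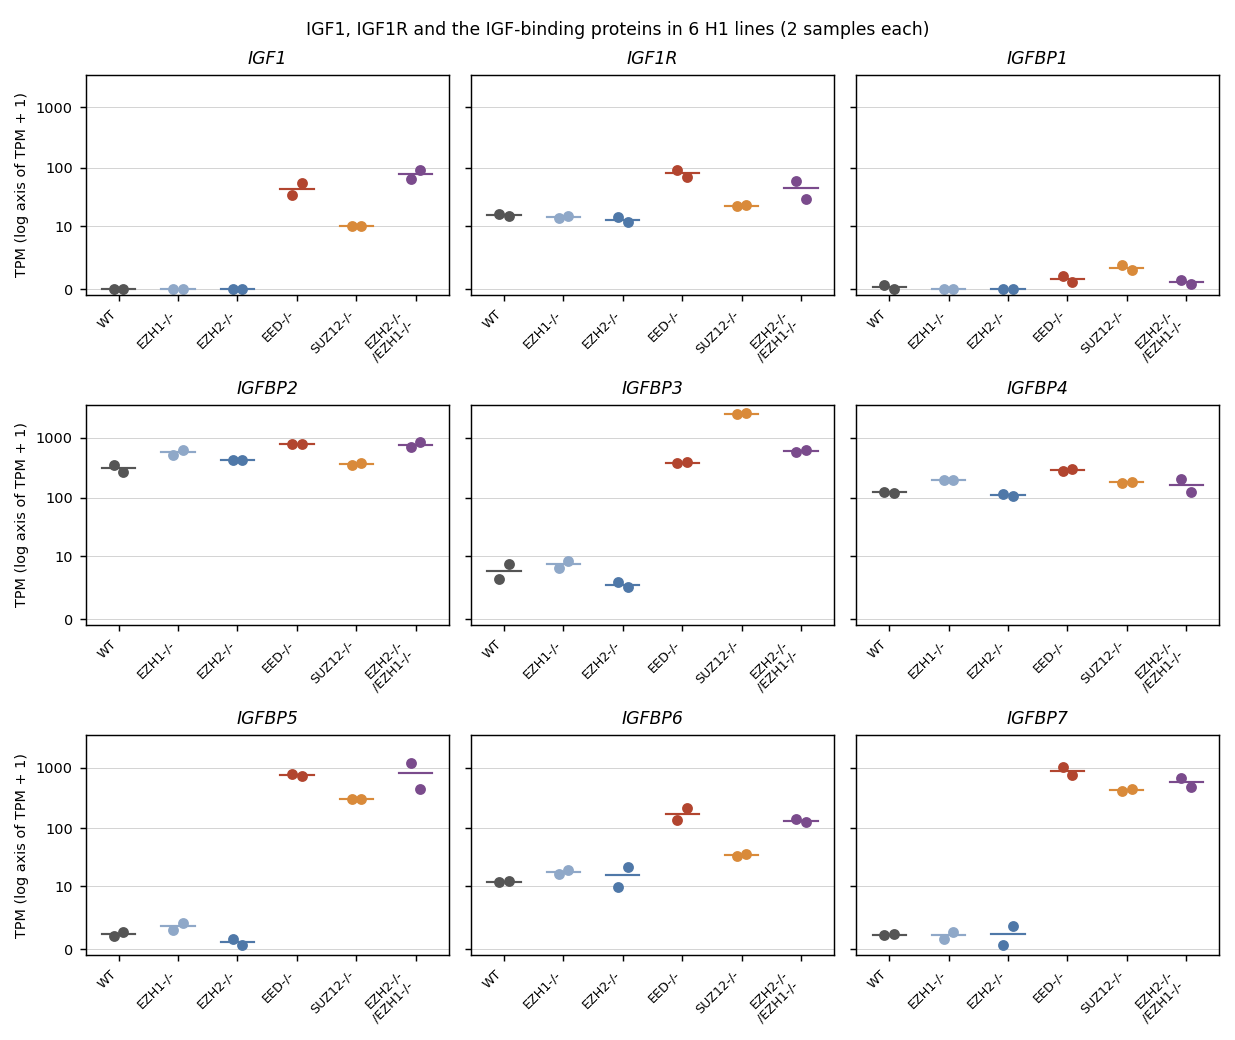
TPM of each gene (vertical axis, logarithmic in TPM + 1, with ticks labelled in TPM) in the 6 lines, with 1 point per sample and a bar at the mean of the 2. IGF1, IGFBP3, IGFBP5 and IGFBP7 were at 8.33 TPM or less in every sample of WT, EZH1-/- and EZH2-/- cells and at 9.90 TPM or more in every PRC2-null sample, while IGFBP2 and IGFBP4 were above 100 TPM in every line.

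Counted over the 9 genes, 6 rose in EED-/- H1 cells (IGF1, IGF1R, IGFBP3, IGFBP5, IGFBP6 and IGFBP7), 5 in EZH2-/-/EZH1-/- H1 cells (the same without IGF1R) and 4 in SUZ12-/- H1 cells (without IGF1R and IGFBP6), and 0 fell. Over all 19100 genes tested, 16.2% rose and 6.09% fell in EED-/-, 14.5% rose and 5.21% fell in SUZ12-/-, and 11.6% rose and 5.66% fell in EZH2-/-/EZH1-/- H1 cells. The median log2 change of the 9 genes was 3.70, 1.48 and 3.35 in EED-/-, SUZ12-/- and EZH2-/-/EZH1-/- H1 cells, against 0.36, 0.22 and 0.19 for all genes. Scaling the samples by median ratios lowered these medians of all genes by 0.30, 0.14 and 0.11, and the members' changes are to be read relative to that. The 3 comparisons share the WT samples. IGF1, IGFBP1 and IGFBP7 passed the filter on low values through PRC2-null samples alone, so they had to be higher there. The counts of 6, 5 and 4 include IGF1 and IGFBP7, the medians include all of these genes, and neither is a test of them.

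EZH1-/- and EZH2-/- H1 cells differed little from WT for these genes. In neither did any of the 9 pass the thresholds by limma, beside 0.0995% of all genes passing in EZH1-/- and 0% in EZH2-/- H1 cells. In each, 2 genes were at an unadjusted p under 0.05, a looser threshold for which no share of all genes is given. The smallest adjusted p was for IGFBP2 in EZH1-/- H1 cells, at 1.83-fold above WT (log2 change 0.87 ± 0.18, limma adjusted p = 0.049), and both EZH1-/- samples lay above both WT samples. IGFBP4 was 1.58-fold above WT in the same cells (limma adjusted p = 0.171). In EZH2-/- H1 cells the 2 genes were IGFBP3, with a log2 difference of -0.72 ± 0.26 (limma adjusted p = 0.663), and IGFBP2, with 0.47 ± 0.18 (limma adjusted p = 0.747). The 95% intervals for IGFBP5 and IGFBP7 in EZH2-/- H1 cells ran from -1.26 to 0.38 and from -0.79 to 0.67 on the log2 scale, far from the changes in the PRC2-null lines.

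**Figure D2:**
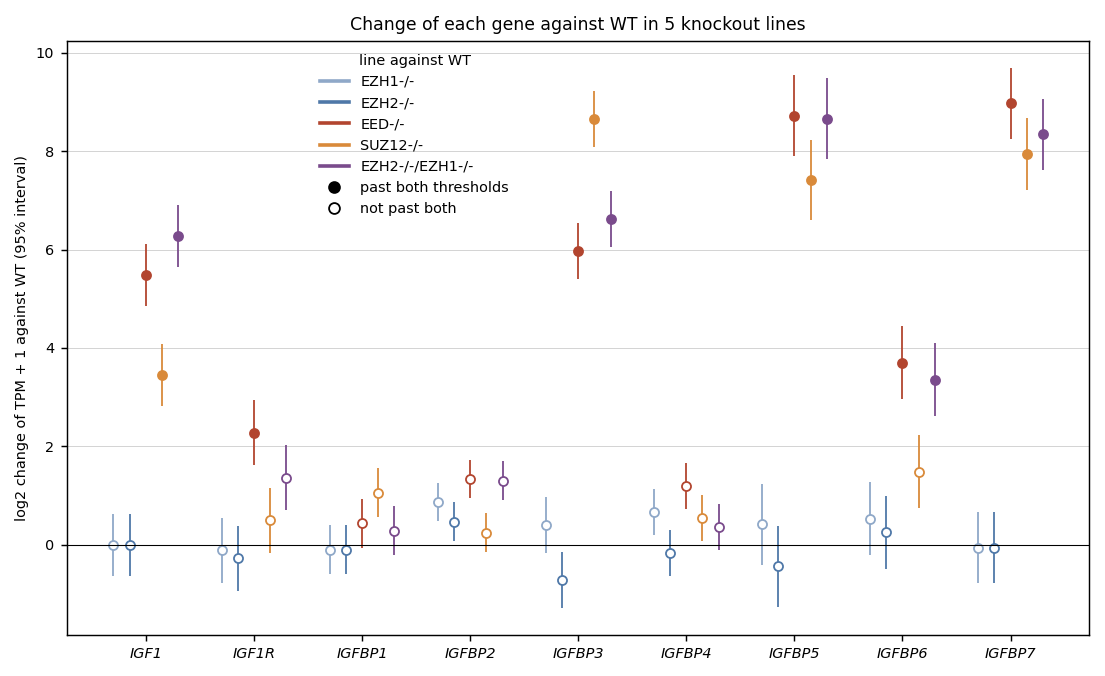
Log2 change of TPM + 1 against WT (vertical axis) for each gene in the 5 knockout lines, with 95% intervals from limma. Filled points passed an adjusted p of 1% and 3-fold. IGF1 and IGFBP7 passed the filter on low values through PRC2-null samples alone, so their points for those lines had to lie high. IGFBP3, IGFBP5 and IGFBP7 had changes between 5.97 and 8.97 in the PRC2-null lines, and every point of EZH1-/- and EZH2-/- cells was open.

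When the average of the 3 PRC2-null lines was set against that of the 3 other lines, IGF1, IGFBP3, IGFBP5, IGFBP6 and IGFBP7 rose and 0 members fell, beside 13.5% of all genes up and 5.09% down. The log2 changes were 7.19 ± 0.15 for IGFBP3, 8.27 ± 0.21 for IGFBP5 and 2.59 ± 0.19 for IGFBP6 (limma adjusted p = 1.60e-10, 6.85e-10 and 6.64e-07). That of IGFBP7 was 8.46 ± 0.19. An adjusted p of 5% without a fold threshold was met by 68.6% of all genes in this comparison. For the stricter adjusted p used throughout, no share without a fold threshold is given. The other 4 members met that stricter adjusted p with changes under 3-fold. IGF1R came closest, at 2.84-fold (limma adjusted p = 1.77e-05), and passed at a log2 change of 1.67 without EZH2-/-/EZH1-/- replicate 2. All 6 PRC2-null samples lay above all 6 others for 7 of the 9 genes, the exceptions being IGFBP2 and IGFBP4. The same held for 24.2% of all genes tested. IGF1, IGFBP1 and IGFBP7 had passed the filter on low values through PRC2-null samples alone, so they had to be higher here. The errors of this comparison come from the spread within pairs of samples and leave out the differences between lines of a group. IGFBP3, for example, differed by 2.69 on the log2 scale between SUZ12-/- and EED-/- H1 cells. The errors of the averages of lines given below leave such differences out too.

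Markers of other cell types moved with the same groups, and their part in the results was not tested. The 5 pluripotency genes POU5F1, NANOG, SOX2, DPPA4 and LIN28A summed to between 3982 and 5082 TPM in the other lines and between 96.8 and 391 TPM in the PRC2-null lines. The 7 smooth muscle and stroma genes ACTA2, TAGLN, CNN1, MYH11, PDGFRB, COL1A1 and COL3A1 summed to 226 to 642 TPM and 7429 to 14773 TPM. Singly, CNN1 (16.5 to 32.8 TPM in the other lines against 21.4 to 110 TPM) and MYH11 (0.67 to 1.32 TPM against 0.29 to 1.38 TPM) overlapped. ACTA2, TAGLN, PDGFRB, COL1A1 and COL3A1 did not. The 7 yolk sac and liver genes AFP, ALB, TTR, APOA1, APOB, SERPINA1 and FGB summed to 4.52 to 15.4 TPM, with 1 to 4 of them at 0, and to 1329 to 23081 TPM with 0 of them at 0. The 5 trophoblast genes CDX2, GATA3, KRT7, TFAP2A and CGA summed to 12.2 to 14.8 TPM, with 1 to 3 at 0, and to 109 to 427 TPM with 0 at 0. The sums of the 5 endothelial genes PECAM1, CDH5, KDR, TEK and VWF overlapped, at 45.1 to 143 TPM and 49.8 to 490.5 TPM, as did KDR and TEK singly. PECAM1 (0 to 0.37 TPM against 13.2 to 153 TPM), CDH5 (0.13 to 0.95 TPM against 11.9 to 146 TPM) and VWF (0.38 to 0.94 TPM against 4.25 to 39.1 TPM) did not overlap between the other and the PRC2-null lines. In bulk RNA more cells of a type and more RNA per cell cannot be told apart, for the members as for these markers.

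Summed over IGFBP1 to IGFBP7, binding protein mRNA came to 456 ± 57.3 TPM (SD, n = 2) in WT, 793 ± 82.3 TPM in EZH1-/- and 558 ± 2.60 TPM in EZH2-/- H1 cells. The sums in the PRC2-null lines were 3279 ± 147 TPM without EED, 3801 ± 104 TPM without SUZ12 and 3059 ± 593 TPM without both enzymes. The highest of the other lines' samples, at 852 TPM, was below the lowest PRC2-null sample, at 2640 TPM. The makeup changed with the sum. IGFBP2 gave 65.5% to 76.9% and IGFBP4 19.2% to 29.4% of it in the 6 samples of the other lines. In the PRC2-null samples IGFBP2 gave between 9.56% and 31.8% and IGFBP4 between 4.71% and 9.43%, although the TPM of both genes in every PRC2-null sample was at least the lower of the 2 WT values. IGFBP3 gave 65.4% and 64.9% of the sum in SUZ12-/- H1 cells and between 11.1% and 23.5% in the other PRC2-null samples. IGFBP5 and IGFBP7 gave at most 34.03% and 29.98% of the sum in any sample of the lines.

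**Figure D3:**
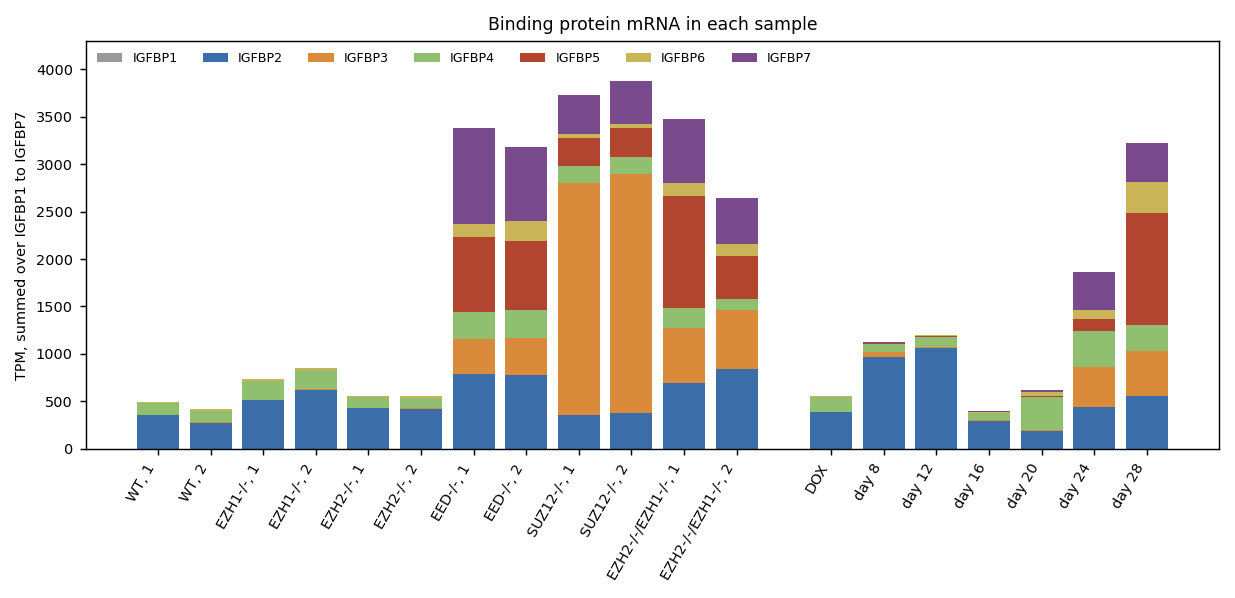
TPM summed over the 7 binding proteins (vertical axis, linear from 0) in each of the 19 samples, with coloured segments for the genes. IGFBP2 and IGFBP4 made up nearly the whole bar in WT, EZH1-/- and EZH2-/- cells, IGFBP3 was the largest segment in SUZ12-/- cells, and the bar of day 28 after DOX withdrawal, at 3221 TPM, reached the height of the EED-/- bars.

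The PRC2-null lines were not alike for these genes. SUZ12-/- and EED-/- H1 cells differed past the thresholds for 4 of the 9, beside 6.12% of all genes. IGFBP3 was 6.44-fold higher without SUZ12 (log2 difference 2.69 ± 0.26, limma adjusted p = 6.05e-05). IGF1 (-2.03 ± 0.29, limma adjusted p = 0.000731), IGF1R (-1.78 ± 0.30, limma adjusted p = 0.0021) and IGFBP6 (-2.22 ± 0.33, limma adjusted p = 0.00111) were lower without SUZ12. With either SUZ12-/- sample left out, or with both averaged as 1 sample (an alternative chosen after seeing the data), IGFBP3 alone passed, and IGF1, IGF1R and IGFBP6 kept their direction. IGFBP2, 2.13-fold lower without SUZ12 (limma adjusted p = 0.00176), was under 3-fold.

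EZH2-/-/EZH1-/- and EED-/- H1 cells differed past the thresholds for 0 of the 9 genes by limma, beside 0.089% of all genes. At an unadjusted p under 0.05, a looser threshold for which no share of all genes is given, there were 4 genes. The 4 were IGF1 (log2 difference 0.78), IGF1R (-0.91), IGFBP3 (0.64) and IGFBP4 (-0.84). The 95% interval for IGFBP5 ran from -0.88 to 0.76 on the log2 scale and that for IGFBP7 from -1.35 to 0.10, which leaves room for differences of almost 2-fold either way in the former. EZH2-/-/EZH1-/- and SUZ12-/- H1 cells differed for 3 of the 9, beside 4.46% of all genes. IGF1 (2.81 ± 0.29, limma adjusted p = 0.000107) and IGFBP6 (1.87 ± 0.33, limma adjusted p = 0.00399) were higher and IGFBP3 (-2.04 ± 0.26, limma adjusted p = 0.000446) was lower without both enzymes. IGFBP6 missed the adjusted p when any 1 of these 4 samples was left out, at 0.0104 to 0.0402, and with only the 4 samples of the 2 lines in the fit, 0 of the 3 passed. The 3 comparisons among PRC2-null lines share their samples pairwise. The yolk sac and liver genes, which include AFP and ALB, also set SUZ12-/- H1 cells apart, with sums of 22211 and 23081 TPM against 1329 to 3779 TPM in the other 2 PRC2-null lines, and their part in these differences was not tested.

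After DOX was taken from H1-EED-/-/EED-OE cells, most of the genes that differed between lines reached their highest level late. IGF1 was at 0.04 TPM with DOX, at 0.30, 0, 0 and 0.54 TPM on days 8, 12, 16 and 20, and at 10.99 and 45.98 TPM on days 24 and 28. IGFBP7 was at 0.74 TPM with DOX, at 3.15, 3.27, 7.65 and 20.97 TPM on days 8 to 20, and at 401 and 405 TPM on days 24 and 28. IGFBP5 was at 0.68 TPM with DOX, at 5.12, 5.96, 2.99 and 13.2 TPM on days 8 to 20, and at 133 and 1186 TPM on days 24 and 28. IGFBP5 and IGFBP7 had already left the range of the DOX sample and the other lines by day 8, the first day sampled, and stayed above it. IGF1 exceeded that range on day 8, at 0.30 TPM, and again from day 20, at 0.54 TPM. With 1 sample a day, values this near 0 do not date its rise, which was clear on day 24.

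IGFBP6 was at 10.1 TPM with DOX, between 5.11 and 9.91 TPM on days 8 to 16, and at 45.97, 86.7 and 326 TPM on days 20, 24 and 28. IGF1R was at 11.1 TPM with DOX, between 13 and 18.99 TPM on days 8 to 20, and at 28.9 and 43.1 TPM on days 24 and 28. Both were thus highest on the last day.

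IGFBP3 did not follow a single course. It was at 4.53 TPM with DOX, at 51.4 TPM on day 8, back at 6.15 and 3.14 TPM on days 12 and 16, at 9.68 TPM on day 20, and at 418 and 478 TPM on days 24 and 28. IGFBP2 was at 384 TPM with DOX, at 969 and 1065 TPM on days 8 and 12, at 296 and 193 TPM on days 16 and 20, and at 440 and 553 TPM on days 24 and 28. The values of IGFBP2 on days 8 and 12 were above those of every other sample in the study. IGFBP4 was at 158 TPM with DOX, between 80.5 and 110 TPM on days 8 to 16, and at 340, 380 and 273 TPM on days 20, 24 and 28. IGFBP1 was at 0.63 TPM on day 24 and at 0.17 TPM or less in the other 6 samples of this line.

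**Figure D4:**
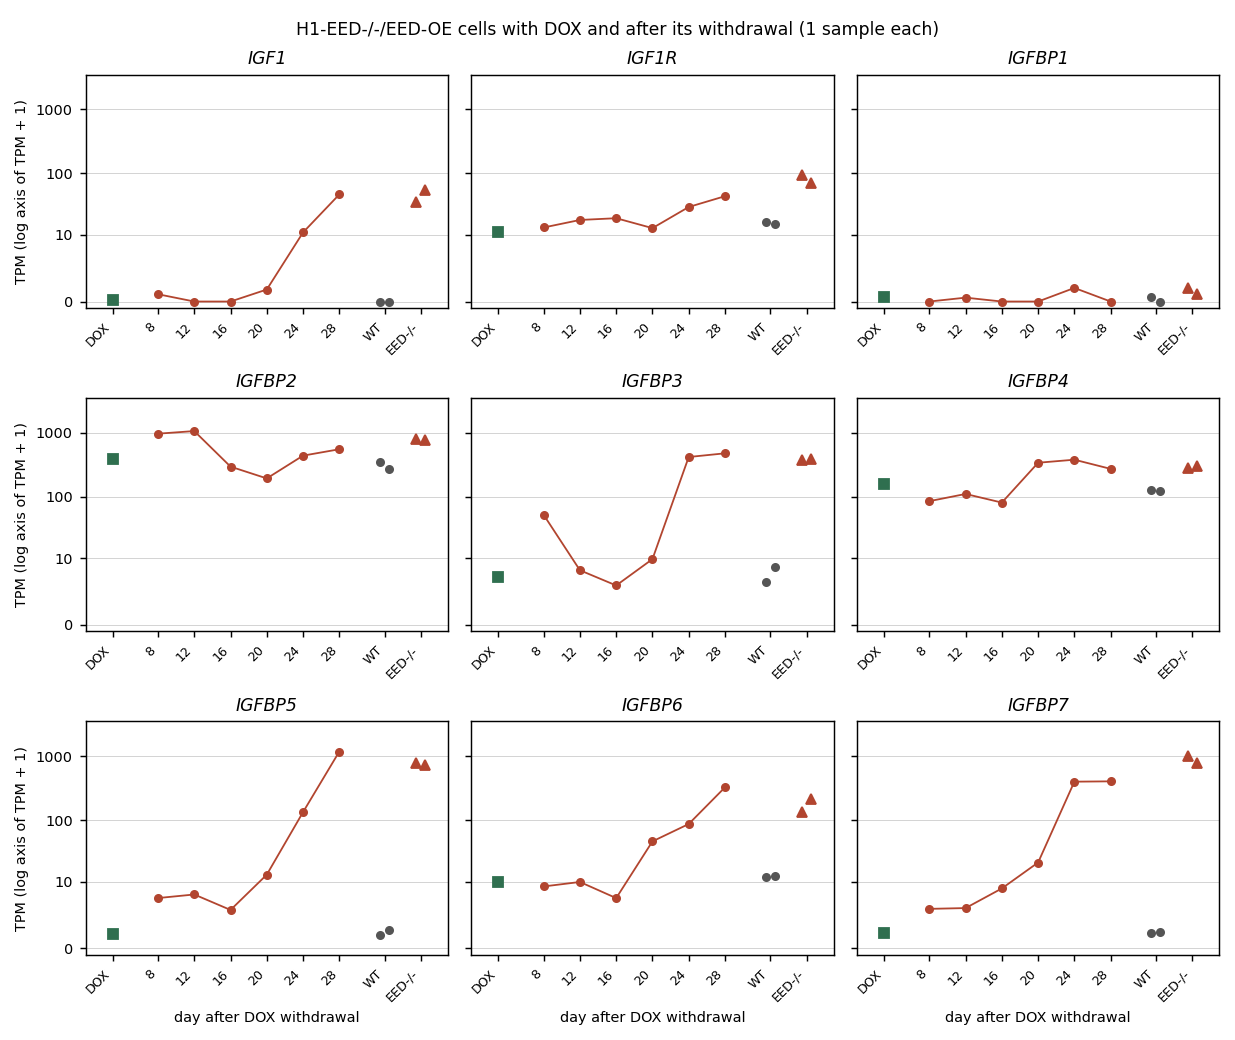
TPM of each gene (vertical axis, logarithmic in TPM + 1, with ticks labelled in TPM) in H1-EED-/-/EED-OE cells with DOX (square) and on 6 days after its withdrawal (joined circles), beside the 2 WT (circles) and 2 EED-/- samples (triangles). IGF1, IGFBP3, IGFBP5, IGFBP6 and IGFBP7 were at their highest on day 28, and IGFBP2 on day 12.

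The trend over the 6 days was tested by limma with the day as a number, since single days had no replicate. Its errors come from the scatter about a straight line and do not measure the spread between repeated withdrawals. IGFBP7 rose, with a fitted log2 change from day 8 to day 28 of 7.73 ± 1.08 (limma adjusted p = 0.00919), beside 1.35% of all 17245 genes that rose and 0.661% that fell. The call was lost without day 8, 12, 16, 24 or 28, at limma adjusted p-values of 0.0141 to 0.0648, and kept without day 20. The fitted changes of IGFBP6 (5.38 ± 0.98, limma adjusted p = 0.0154), IGFBP5 (7.52 ± 1.58, 0.0227) and IGFBP4 (2.25 ± 0.61, 0.0422) did not meet the 1% threshold. Those of IGF1R (1.37 ± 0.46, 0.0727), IGFBP3 (4.99 ± 2.33, 0.166) and IGFBP2 (-1.21 ± 0.85, 0.339) were further from it, and IGFBP1 was too low to be tested. IGF1 reached 1 TPM only on days 24 and 28 and passed the filter on low values through these days alone. It thus had to rise. Its fitted change of 5.32 ± 1.24, which did not meet the 1% threshold either, is given without a p-value. Without day 16 IGFBP6 passed, at 5.07 (limma adjusted p = 0.00664). The summed pluripotency genes went from 4082 TPM with DOX to 4714 TPM on day 16, 2271 TPM on day 20, and 342 and 360 TPM on days 24 and 28, and the smooth muscle and stroma genes from 553 TPM on day 20 to 7418 TPM on day 24. Their part in the trend was not tested.

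On day 28, with 1 sample and so no test, IGF1 was the only one of the 9 genes inside the range of the 2 EED-/- samples. At 45.98 TPM it lay between the 2 EED-/- values of 35.2 and 54.5 TPM, and IGFBP4, at 273 TPM, lay just under their 277 TPM. IGFBP3, IGFBP5 and IGFBP6 were above both EED-/- values, IGFBP6 with 326 TPM against 134 and 215 TPM. IGF1R, at 43.1 TPM, and IGFBP7, at 405 TPM, were below both, as were IGFBP2, at 553 TPM against 773 and 786 TPM, and IGFBP1, at 0 against 0.30 and 0.62 TPM.

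The genes most like each member over the 19 samples were found by Pearson's r of log2(TPM + 1) among 19721 genes with at least 1 TPM in at least 2 samples. These r values describe samples that share lines and libraries and were not tested. IGFBP7 was most like PTCHD4 (r = 0.992), NR2F2 (0.991) and PLK2 (0.988), and IGFBP5 most like NR2F2 (0.988), SCUBE3 (0.986) and ANXA4 (0.986), so the nuclear receptor gene NR2F2 stood on both lists. IGF1 was most like CDKN2B (0.985), NPNT (0.983) and RP11-597D13.9 (0.981). IGF1R was most like ABL2 (0.985), ITGA2 (0.974) and COL8A1 (0.974). IGFBP3 was most like FRZB (0.985), VTN (0.977) and LY6H (0.975), the second of which encodes vitronectin. IGFBP6 was most like SHB (0.965), MAPK11 (0.958) and NPPB (0.955). The r values were lower for IGFBP4, led by TMC6 (0.930), PAPSS1 (0.900) and TCP11L1 (0.873), and for IGFBP2, led by TMEM59L (0.830), EEF1A2 (0.815) and SLC2A12 (0.801). For IGFBP1, at or near 0 in most samples, PROX1-AS1 (0.940), SUCNR1 (0.940) and DMRTC1B (0.937) led. Between members, r was 0.98 for IGFBP5 with IGFBP7 and 0.96 for IGF1 with IGFBP5. It was 0.78 for the neighbours IGFBP1 and IGFBP3 and 0.34 for the neighbours IGFBP2 and IGFBP5.

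The rest of the pathway was taken as a list of 30 genes, namely other ligands and receptors, proteins like the IGFBPs, proteases that cut IGFBPs and their inhibitors, signalling proteins and IGF2 mRNA-binding proteins. Of the 28 that could be tested, 8 rose and 0 fell between the other lines and the PRC2-null lines, taken as averages, beside 13.5% of all genes up and 5.09% down, and 10 more met the adjusted p under 3-fold in one direction or the other. Of the 28, 5 (INS, KAZALD1, PAPPA, PAPPA2 and ADAM12) passed the filter on low values through PRC2-null samples alone, so they had to be higher there, and 3 of them (KAZALD1, PAPPA and ADAM12) are among the 8. INS and PAPPA2 are among the 10, and neither count is a test of these genes. An adjusted p of 5% without a fold threshold was met by 68.6% of all genes. The median log2 change of the 28 was 0.85, against 0.29 for all genes.

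IGF2, the fetal ligand and an imprinted gene, changed most. It was between 0.18 and 1.08 TPM in the other lines, at 368 and 540 TPM without EED, 848 and 633 TPM without both enzymes, and 3207 and 3285 TPM without SUZ12. Between the averages of the PRC2-null and the other lines the log2 change was 9.40 ± 0.13 (limma adjusted p = 1.03e-11). IGF2 exceeded IGF1 in every PRC2-null sample. The order of the 3 lines was that of IGFBP3, not that of IGF1. After DOX withdrawal IGF2 was at 18.2 TPM on day 20, 2718 TPM on day 24 and 1446 TPM on day 28. INS was above 0 only in SUZ12-/- H1 cells, at 6.91 and 5.30 TPM, and is uncertain because INS and IGF2 are neighbours joined by the read-through transcript INS-IGF2.

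Of the receptors, IGF2R, which takes up IGF2 for breakdown, rose from between 18.3 and 28.7 TPM to between 41.7 and 153 TPM (log2 change 1.66 ± 0.17, limma adjusted p = 6.44e-06), while the insulin receptor INSR was at 5.64 to 8.26 TPM and 4.02 to 8.59 TPM (-0.13 ± 0.18, limma adjusted p = 0.539). IGFALS, the third partner of the serum complex of IGF and IGFBP3 or IGFBP5, was at 0.44 TPM or less in all 19 samples and was not tested. Of the proteases, HTRA1 rose from between 19.96 and 34.7 TPM to between 181 and 1309 TPM (log2 change 3.95), and ADAM28 from between 0.83 and 1.43 TPM to between 5.42 and 21.6 TPM (2.58). For the genes that passed the filter through PRC2-null samples alone, values are given without a test. PAPPA, which cleaves IGFBP4 and IGFBP5, was at 0.19 to 0.44 TPM in the other lines and at 7.86 to 63.9 TPM in the PRC2-null lines. ADAM12, which cleaves IGFBP3 and IGFBP5, was at 0 to 0.20 TPM and 5.26 to 68.5 TPM, PAPPA2 at 0.08 to 0.43 TPM and 0.50 to 4.84 TPM, and KAZALD1 at 0.29 to 1.55 TPM and 7.17 to 15.5 TPM. The PAPPA inhibitors STC1 (1.31, limma adjusted p = 0.00254) and STC2 (0.03, limma adjusted p = 0.874) did not pass both thresholds.

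Of 12 signalling genes 1 passed both thresholds, beside 13.5% of all genes up and 5.09% down. It was PIK3R1, a regulatory subunit of PI3K (1.96 ± 0.33, limma adjusted p = 0.000343). Its groups overlapped, with 7.43 TPM in EZH2-/-/EZH1-/- replicate 2 and 9.34 TPM in 1 EZH2-/- sample. The adaptor IRS1 had a log2 change of 1.06, the kinase AKT1 0.76 and the transcription factor gene FOXO3 1.23, all of which met the adjusted p under 3-fold. Line by line against WT, PIK3R1 passed in SUZ12-/- H1 cells (2.23, limma adjusted p = 0.00869) and not in EED-/- (1.93, limma adjusted p = 0.0166) or EZH2-/-/EZH1-/- H1 cells (1.16, limma adjusted p = 0.125), and FOXO3 passed in EED-/- H1 cells (1.59, limma adjusted p = 0.000963). None of the 3 IGF2 mRNA-binding proteins passed both thresholds, and IGF2BP1 did not overlap between the groups, at 28.3 to 61.7 TPM in PRC2-null samples against 66.6 to 86.1 TPM (-0.72 ± 0.17, limma adjusted p = 0.00333). Over the 6 days without DOX, 1 of 26 list genes passed the trend test, IGF2R, with a fitted log2 change of 2.98 ± 0.40 (limma adjusted p = 0.00874), beside 1.35% of all genes up and 0.661% down.

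**Figure D5:**
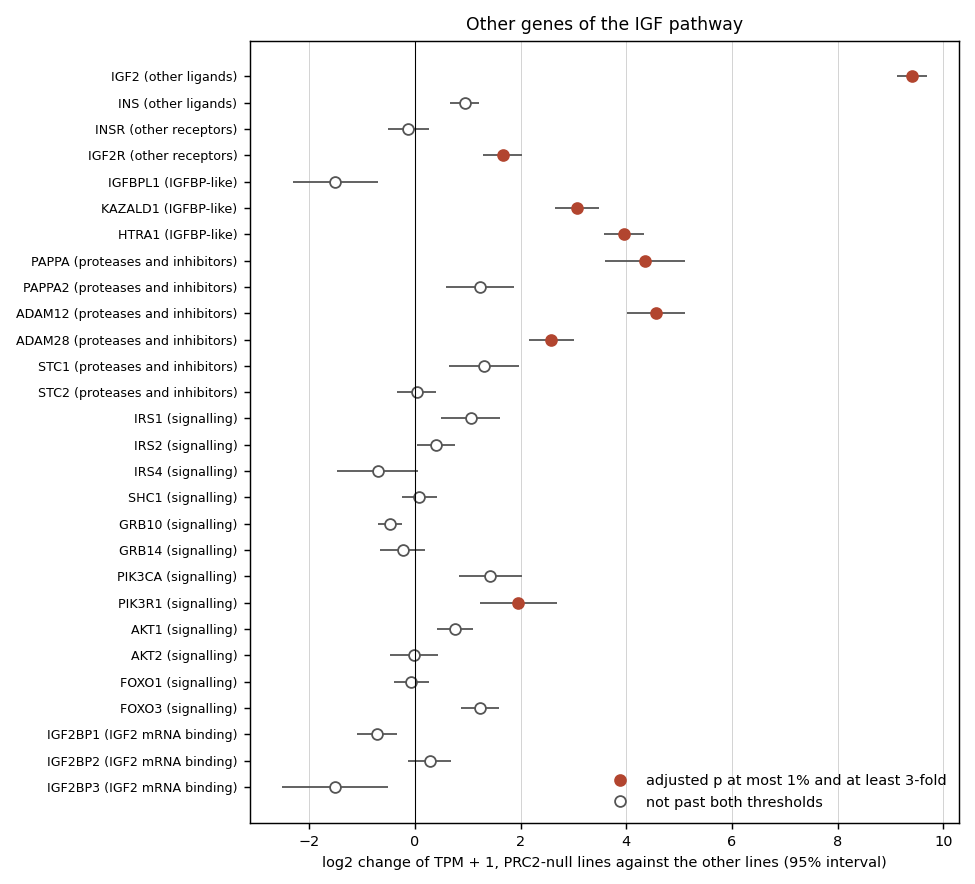
Log2 change of TPM + 1 between the averages of the PRC2-null and the other lines (horizontal axis) for the 28 tested genes of the IGF pathway list, with 95% intervals from limma. IGF2 was furthest to the right at 9.40, the 8 filled points all lay to the right of 0, and the signalling genes other than PIK3R1 were open.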

How the data were processed

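The authors prepared unstranded TruSeq RNA v2 libraries, sequenced them on an Illumina NextSeq, mapped them to mRNA sequences of GRCh38/hg38 by Bowtie2, estimated expression with RSEM and deposited the TPM of each gene for each sample. The submitters' processing notes also list hg19, with no role given. TPM hold no counts, so the edgeR test the authors describe was not run and no interval needing depth is given. Samples were grouped by their labels. limma 3.58.1 in R 4.3.3 was fitted to log2(TPM + 1), with eBayes trend and robust options, over all 12 samples of the 6 lines (6 residual degrees of freedom), and separately to the 6 days without DOX (4 residual degrees of freedom). The DOX sample has D28 in its title but no day in its time label, and it stayed out of the trend. Genes of at least 1 TPM in at least 2 of the 12 samples, or in 2 of the 7 of the DOX line, were tested (19100 and 17245), with Benjamini-Hochberg adjustment over all of them. The study's thresholds of 1% and 3-fold were used, and the script was tested on simulated data. Genes were named from the 9 members, the pathway and marker lists, the targeted genes and the 3 genes most like each member. Not every gene of the pathway list is named, and 2 genes first placed on it are not reported here and are outside its count of 30. The members and lists were chosen with earlier results of these data known. Files were joined by Ensembl identifier. Alternatives were another pseudocount, no filter, median-ratio scaling, a replicate block, plain eBayes, a 5% threshold without a fold, fits of single comparisons, leaving out samples or days, and the DOX sample as day 0. The labels' numbering gives no pairing of samples between lines. Python 3.11.15 with pandas 2.3.3 and matplotlib 3.10.9 was used otherwise.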

Additional observations from a re-analysis of the deposited data

Results flagged for a closer look

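For 4 genes the change against WT differed between PRC2-null lines by the limma test of the difference itself, with Benjamini-Hochberg adjustment over all genes. Between SUZ12-/- and EED-/- H1 cells the log2 difference was -2.03 for IGF1 (limma adjusted p = 0.000731), -1.78 for IGF1R (0.0021), 2.69 for IGFBP3 (6.05e-05) and -2.22 for IGFBP6 (0.00111). Between EZH2-/-/EZH1-/- and SUZ12-/- H1 cells it was 2.81 for IGF1 (0.000107), -2.04 for IGFBP3 (0.000446) and 1.87 for IGFBP6 (0.00399). SUZ12-/- H1 cells thus had the most IGFBP3 and the least IGF1 and IGFBP6 of the 3 PRC2-null lines in both of their samples. The 2 SUZ12-/- samples were also the closest pair of the study, with a median absolute log2 ratio of 0.09, and each difference from EED-/- H1 cells other than that of IGFBP3 missed the 1% threshold when they were counted as 1 sample, at limma adjusted p-values of 0.0112 for IGF1, 0.0225 for IGF1R and 0.0132 for IGFBP6. Whether these differences belong to the deleted subunit or to the clones sampled cannot be told apart.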

How the results depend on the processing

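Of the counts of genes past the thresholds, 177 of those recomputed under an alternative stayed within 1.5 times the reported count and 15 did not. Of the log2 changes of single genes, 1648 kept their direction and their side of the thresholds, 26 newly passed, 29 no longer passed and 13 changed sign, none of the last past the thresholds in the reported fit. Leaving out a sample of a line outside a comparison cannot alter the log2 change of that comparison, and the 5% setting reuses the reported fit. The totals that stayed the same thus include many values that could hardly move. The trend over days was the least stable. Its count of 1 gene became 0 without the filter on low values, with scaling by median ratios and with plain eBayes, where IGFBP7 had adjusted p-values of 0.0165, 0.0106 and 0.0151, and it ranged from 0 to 1 when single days were left out. At 5% without a fold threshold 5 genes passed the trend (19.6% of all genes), 1 passed in EZH1-/- against WT (1.06%), 9 in the PRC2-null against the other lines (68.6%) and 6 in EZH2-/-/EZH1-/- against SUZ12-/- H1 cells (14.3%). The last count was 0 with only those 4 samples in the fit. The 5 genes of the trend include IGF1, which passed the filter on low values through days 24 and 28 alone and had to rise. The 9 include IGF1, IGFBP1 and IGFBP7, which passed it through PRC2-null samples alone and had to be higher there. Neither count is a test of these genes. SUZ12-/- against EED-/- H1 cells had between 1 and 4 genes when single samples were left out and 1 with the SUZ12-/- samples averaged, which was chosen after seeing the data, as was leaving EZH2-/-/EZH1-/- H1 cells out of the PRC2-null average, where the count of 5 held. With scaling by median ratios IGF1R between SUZ12-/- and EED-/- H1 cells had a log2 difference of -1.57, just under 3-fold, and 3 small differences changed sign: IGFBP7 in EZH2-/- against WT (0.0058), and IGFBP2 (0.21) and IGFBP5 (0.18) in EZH2-/-/EZH1-/- against EED-/- H1 cells. When single samples were left out, the log2 difference from WT ranged from -0.0069 to 0.81 for IGFBP3 and from -0.25 to 0.13 for IGFBP7 in EZH1-/-, from -0.31 to 0.81 for IGFBP6 and from -0.59 to 0.47 for IGFBP7 in EZH2-/-, and from -0.0057 to 0.72 for IGFBP4 in EZH2-/-/EZH1-/- H1 cells. Between EZH2-/-/EZH1-/- and EED-/- H1 cells it ranged from -0.30 to 0.014 for IGFBP1, from -0.17 to 0.11 for IGFBP2 and from -0.77 to 0.64 for IGFBP5, and between EZH2-/-/EZH1-/- and SUZ12-/- H1 cells from -0.55 to 0.18 for IGFBP4. The cause of these changes was not tested. Where a line was left with 1 sample, that sample was assumed to vary like the other lines. With the sample number as a replicate block, the counts were the same in all 9 comparisons of lines (6, 4 and 5 in EED-/-, SUZ12-/- and EZH2-/-/EZH1-/- H1 cells). The numbers follow the order of deposit and do not pair the samples, whose deviations correlated between -0.12 and 0.22 over 15 pairs of lines. TPM give no depth, so values near 0, such as those of IGFBP1, cannot be bounded.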
